A study of Mus musculus with 20 samples.

Results

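The biliary and progenitor epithelial genes are a list of 31 genes whose products mark bile duct cells (cholangiocytes) or liver progenitor cells (LPCs). All probe sets annotated to their symbols were taken, whatever their signal. The list holds 5 keratins, 5 transcription factors and the surface, cilium, secretion and claudin genes named below. 28 of the 31 genes, among 18194 genes in all, were matched to 65 of the 45101 probe sets. *Spp1*, *Ggt1* and *Pkd2* were not analysed here, because the probe set annotation used here paired none with these symbols, which does not show that the array cannot measure them. Liver RNA described as that of 10 transgenic (tg) mice, which carry *IMP2-2*, also named p62, was compared with that of 10 wildtype (wt) mice. Both groups had the C57Bl6J/DBA2 background, were 5 weeks old and had received no treatment. The transgene is described as liver-specific, and the sources used here do not name the promoter that drives it. Each sample is 1 Affymetrix Mouse Genome array, and all values are log2 signals after robust multi-array average (RMA) normalization.

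In the adult liver, hepatocytes carry the keratin pair *Krt8* and *Krt18*, and bile duct cells carry these together with *Krt7* and *Krt19*. The duct lining senses bile flow with primary cilia and modifies bile with ion and water channels. In injured livers, small duct-like cells with biliary and progenitor markers can spread from the portal tracts, which is called a ductular reaction. An array of whole liver cannot tell fewer or more cells of a type from less or more RNA per cell.

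Some arrays stood apart. The wt arrays wt_1407_2 and wt_1420_6 differed over all probe sets by an SD of only 0.168 log2 units, and wt_1407_5 and wt_1420_7 by 0.172. Tg_1386_9 and wt_1386_4 were closer still, with an SD of 0.155, and both were kept under their labels. Whether the arrays of any of these 3 pairs came from separate mice is not known. Wt means and SDs therefore count each pair once (n = 8), while the lowest, median and highest wt values are over 10 arrays. The log2 differences, SEs and intervals are from limma over all 20 arrays, each wt array on its own, so they can depart from the difference of the printed means. Hepatocyte markers averaged 13.29 to 13.57 in tg and 13.29 to 13.51 in wt livers. Of the duct markers, *Krt19*, *Krt7*, *Epcam* and *Cftr* lay under 4.53, the median of all probe set means, in both genotypes.

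6 of the 28 genes had higher signals in tg than in wt livers and 0 had lower ones (limma, Benjamini-Hochberg adjusted p under 0.05 over all probe sets). These were *Krt8*, *Krt18*, *Sox4*, *Cd44*, *Bicc1* and *Pkhd1*, with log2 differences of 0.67 to 1.07. Among all 18194 genes 542 were higher, or 2.98%, and 176 were lower, or 0.967%. The median log2 difference was 0.10 over the 28 genes and -0.02 over all genes, and 22 of the 28 lay above 0 (78.6%, against 42.8% of all genes). At an unadjusted p under 0.05, 11 of the 28 were higher (39.3%, against 13.0% of all genes) and 0 were lower (against 2228 of all 18194 genes). The count at the adjusted threshold was 2 with near-identical wt arrays averaged (0.896% of all genes higher) and 2 without tg_1423_2-8_1 or without tg_1423_2-8_4. It was 0 in limma without the 4 arrays that share their number (0.253% of all genes higher). In this last fit 10 of the 28 genes were higher at an unadjusted p under 0.05, for which the share of all genes was not computed. A Wilcoxon rank sum test, adjusted in the same way, called 5 higher and 0 lower. The share of all genes was not computed for this test or for the fits without 1 array, so these counts cannot be set against it. The keratins of the duct lining, *Krt7* and *Krt19*, the duct factor *Sox9* and the 4 secretion genes were not among those called. 9 of the 28 genes had both means under 4.53, where a lack of change cannot be read.

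**Figure D1:**
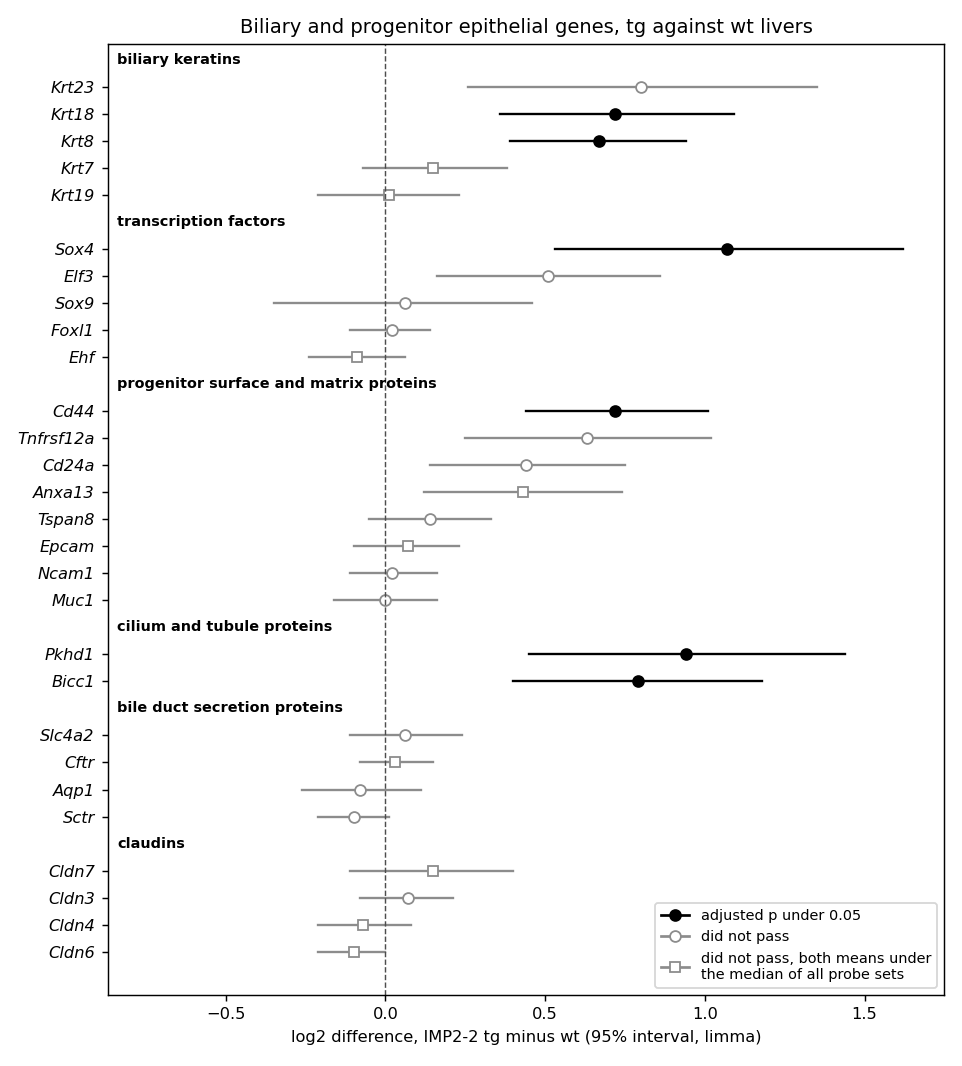
Log2 difference between *IMP2-2* tg (n = 10) and wt livers (n = 10 arrays) for 28 genes in 6 functional groups, as points with 95% intervals from limma. Black points passed an adjusted p of 0.05, all 6 lie right of 0, and the duct secretion genes and claudins lie near 0.

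Promoter sequences are shown for 5 of the 6 higher genes, because these genes passed the test, and *Bicc1* had none in the table used. They were taken from RefSeq, where 22 of the 31 genes had a promoter, and run 5′ to 3′ on the strand of the gene with 250 bases before and 50 after the annotated start. Capitals mark matches to 9 motifs searched on both strands: RBPJ (GTGGGAA), TEAD (GGAATG), SOX (ACAATGG), HNF1 (GTTAATNAT), HNF4A (CAAAGTCCA), GRHL (AACCGGTT), ETS (CCGGAAGT), AP-1 (TGANTCA) and interferon response (GAAANNGAA).
*Krt8* promoter, GRCm38.p6, chr15:102004293-102004592, minus strand: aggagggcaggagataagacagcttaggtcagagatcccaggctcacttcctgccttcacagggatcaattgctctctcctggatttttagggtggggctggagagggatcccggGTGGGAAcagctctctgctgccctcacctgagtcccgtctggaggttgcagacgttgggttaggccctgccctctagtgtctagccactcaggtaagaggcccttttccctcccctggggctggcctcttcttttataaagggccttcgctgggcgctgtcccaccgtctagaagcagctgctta
*Krt18* promoter, GRCm38.p6, chr15:102027966-102028265, plus strand: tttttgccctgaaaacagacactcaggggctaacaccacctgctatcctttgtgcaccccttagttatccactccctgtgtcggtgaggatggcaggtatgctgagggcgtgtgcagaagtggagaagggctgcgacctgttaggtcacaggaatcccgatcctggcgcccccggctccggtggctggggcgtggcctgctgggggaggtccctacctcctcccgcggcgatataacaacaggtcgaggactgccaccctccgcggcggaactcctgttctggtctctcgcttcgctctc
*Sox4* promoter, GRCm38.p6, chr13:28953650-28953949, minus strand: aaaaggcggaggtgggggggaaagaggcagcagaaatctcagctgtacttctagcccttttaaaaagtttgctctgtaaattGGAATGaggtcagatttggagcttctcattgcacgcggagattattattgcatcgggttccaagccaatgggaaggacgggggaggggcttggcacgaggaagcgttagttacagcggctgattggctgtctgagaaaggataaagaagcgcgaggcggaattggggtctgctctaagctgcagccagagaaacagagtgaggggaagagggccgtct
*Cd44* promoter, GRCm38.p6, chr2:102901616-102901915, minus strand: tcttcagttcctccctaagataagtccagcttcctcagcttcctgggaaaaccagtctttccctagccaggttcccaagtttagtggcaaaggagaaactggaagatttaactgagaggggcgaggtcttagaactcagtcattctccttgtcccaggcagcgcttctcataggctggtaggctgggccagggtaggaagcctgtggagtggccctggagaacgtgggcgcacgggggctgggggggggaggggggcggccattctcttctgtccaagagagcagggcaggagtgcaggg
*Pkhd1* promoter, GRCm38.p6, chr1:20618008-20618307, minus strand: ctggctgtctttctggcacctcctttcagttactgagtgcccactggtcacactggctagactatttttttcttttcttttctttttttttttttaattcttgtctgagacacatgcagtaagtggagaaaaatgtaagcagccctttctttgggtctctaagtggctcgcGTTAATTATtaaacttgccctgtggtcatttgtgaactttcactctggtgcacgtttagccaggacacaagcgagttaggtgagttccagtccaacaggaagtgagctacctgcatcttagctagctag

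The 5 promoters shared no match. *Krt8* held the RBPJ letters starting 135 bases before its start, as did 6.38% of all 32851 promoters. *Sox4* held the TEAD letters 168 bases before its start (14.7% of all), and *Pkhd1* held the HNF1 letters GTTAATTAT 79 bases before its start (0.801%). *Krt18* and *Cd44* held none of the 9 motifs. The other shares of all promoters were 3.66% for SOX, 0.475% for HNF4A, 0.146% for GRHL, 3.89% for ETS, 7.81% for AP-1 and 8.56% for interferon response. A match is a description of letters only, and no protein binding was measured.

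Of the 5 keratins, which form the intermediate filaments of epithelial cells, 2 were higher, and they are the pair that hepatocytes and duct cells share. *Krt8*, the type II partner, had a lowest, median and highest log2 signal of 10.38, 10.92 and 11.93 in tg and of 10.04, 10.25 and 10.49 in wt livers. 9 of 10 tg livers lay above all wt livers, and only tg_1386_9 overlapped with them. *Krt8* averaged 10.96 ± 0.42 in tg (SD, n = 10) and 10.28 ± 0.15 in wt (n = 8). The limma difference over all 20 arrays was 0.67 (SE 0.132), or 1.59-fold, with limma adjusted p = 0.0125. All 3 probe sets of *Krt8* passed, the other ones with 0.61 (adjusted p = 0.0166) and 0.68 (adjusted p = 0.0120). Those with 0.67 and 0.61 are of a type that can cross-hybridize, that is, also match other sequences.

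*Krt18*, the type I partner with which KRT8 assembles, had 10.47, 11.01 and 12.29 in tg and 10.19, 10.44 and 10.60 in wt livers (lowest, median, highest). 8 of 10 tg livers lay above all wt livers, and tg_1386_9 and tg_14231_6 overlapped with them. The means were 11.14 ± 0.58 in tg and 10.40 ± 0.13 in wt, and the limma difference over 20 arrays was 0.72 (SE 0.175), or 1.65-fold (adjusted p = 0.0339). In the RefSeq gene table *Krt8* and *Krt18* are neighbours on chromosome 15, with 2 genes of long non-coding RNAs between them.

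*Krt23*, a type I keratin known to be inducible in stressed liver, missed the threshold with genotype as the only term and varied most among tg livers. It had 4.46, 5.28 and 6.91 in tg and 4.64, 4.67 and 5.29 in wt livers, and 5 of 10 tg livers lay above all wt livers. The highest tg values were 6.91 in tg_1420_4, 6.82 in tg_1423_2-8_4 and 6.65 in tg_1423_2-8_1. The means were 5.58 ± 0.88 in tg and 4.79 ± 0.22 in wt, and the limma difference over 20 arrays was 0.80 (SE 0.262, adjusted p = 0.0922, or 0.0441 with the label number as a term). The duct keratins had a difference of 0.01 for *Krt19* (95% interval -0.21 to 0.23, adjusted p = 0.973) and of 0.15 for *Krt7* (-0.07 to 0.38, adjusted p = 0.444). Both were weak on these arrays, and whether their difference departed from that of *Krt8* was not tested.

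Among the 5 transcription factors *Sox4* alone passed. *Sox4*, which acts with *Sox9* in bile duct development of the mouse, had 5.17, 6.36 and 7.99 in tg and 4.35, 5.46 and 5.80 in wt livers. 8 of 10 tg livers lay above all wt livers, and the lowest wt values were 4.35 and 4.43 in wt_1423_2-8_3 and wt_1423_2-8_9. The means were 6.35 ± 0.75 in tg and 5.22 ± 0.55 in wt, and the limma difference over 20 arrays was 1.07 (SE 0.262), or 2.10-fold (adjusted p = 0.0347). This was 1 of 8 *Sox4* probe sets. The probe set with the second highest mean gave -0.11 (adjusted p = 0.272), and the other 6 lay between -0.07 and 0.31. The first and second probe sets averaged 5.22 and 5.27 in wt (n = 8) and 6.35 and 5.15 in tg livers. The choice between them by the mean over 20 arrays thus rested mainly on tg signals, and the *Sox4* call depends on it.

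*Elf3*, an epithelial factor of the ETS family, had 5.27, 5.61 and 6.71 in tg and 4.99, 5.37 and 5.60 in wt livers. Its difference of 0.51 (SE 0.170) missed the threshold (adjusted p = 0.0981), with 5 of 10 tg livers above all wt livers. *Sox9*, the main factor of biliary identity, had a difference of 0.06 (95% interval -0.35 to 0.46), and *Foxl1*, a marker of bipotential progenitors in the mouse, one of 0.02 (-0.11 to 0.14). *Sox9* averaged 4.89 in tg and 4.86 in wt livers. *Foxl1* averaged 4.62 in both, little above 4.53, so a lack of change is hard to read there too. *Ehf*, a relative of *Elf3*, was weak in all livers and gave -0.09 (-0.24 to 0.06).

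**Figure D2:**
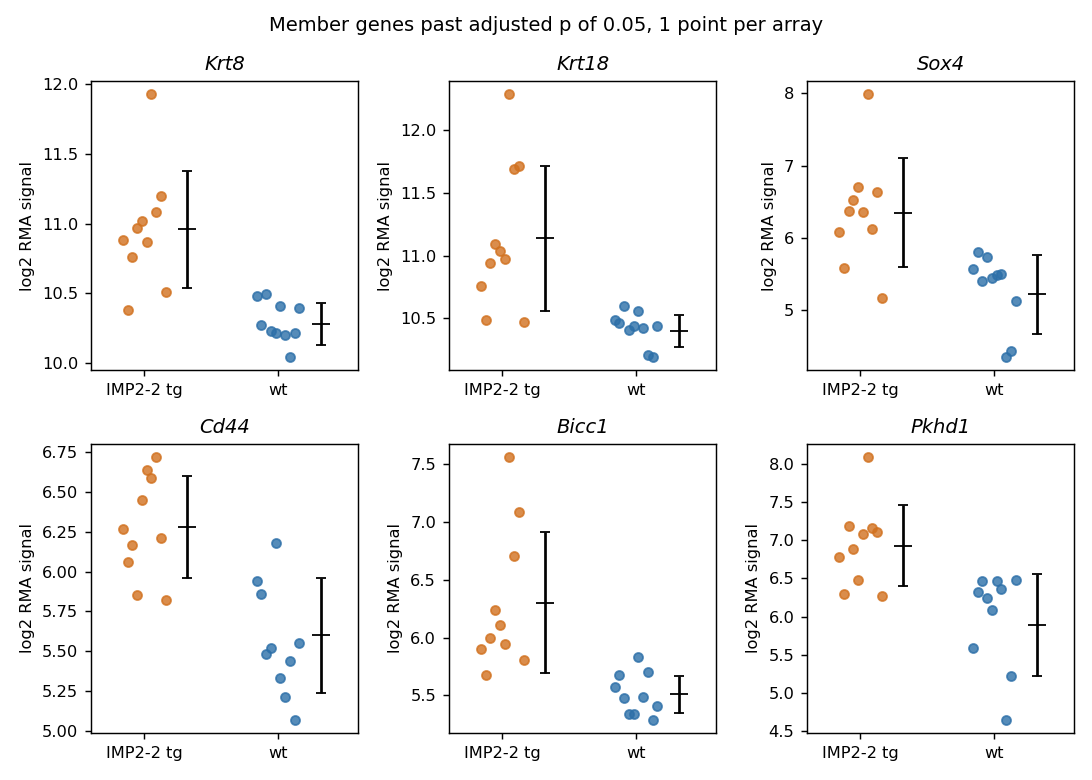
Log2 RMA signals of the 6 genes past the threshold, 1 point per array, with *IMP2-2* tg left (n = 10) and wt right (10 arrays). Bars give mean ± SD, with near-identical wt arrays counted once (n = 8), and the genotypes overlap in 1 to 4 tg livers per gene.

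Of 8 surface and matrix genes, *Cd44* passed. *Cd44*, a hyaluronan receptor of progenitor cells that leukocytes also carry, had 5.82, 6.24 and 6.72 in tg and 5.07, 5.50 and 6.18 in wt livers. The genotypes overlapped in 4 tg livers, since wt_1420_1 reached 6.18, and all 10 tg livers lay above the wt median. The means were 6.28 ± 0.32 in tg and 5.60 ± 0.36 in wt, and the limma difference over 20 arrays was 0.72 (SE 0.137), or 1.65-fold (adjusted p = 0.00993). A second probe set gave 0.69 (adjusted p = 0.0144), and the remaining ones, which were weak, gave 0.19 and 0.08 and did not pass.

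*Tnfrsf12a*, the Fn14 receptor for the ligand TWEAK that drives progenitor cell growth, had 6.44, 6.99 and 7.95 in tg and 6.19, 6.56 and 6.79 in wt livers. Its difference of 0.63 (SE 0.186) missed the threshold (adjusted p = 0.0671) but passed with the label number as a term (0.0275), and its other probe set gave 0.75 (adjusted p = 0.0746). *Cd24a*, a small anchored glycoprotein of immature epithelial cells, had 4.76, 5.15 and 6.0 in tg and 4.19, 4.74 and 5.33 in wt livers. All 10 tg livers lay above the wt median for *Cd24a*, and 3 lay above all wt livers. The difference was 0.44 (SE 0.145, adjusted p = 0.0943, or 0.0453 with the label number as a term). The other probe sets of *Cd24a* gave 0.14 (limma adjusted p = 0.623) and 0.31 (adjusted p = 0.279). With the label number as a term they did not pass either (0.475 and 0.105). *Anxa13*, an annexin of epithelial cells, gave 0.43 (SE 0.148, adjusted p = 0.110) at a low signal, and tg_1420_4 was highest with 5.06.

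The adhesion molecules *Epcam* and *Ncam1* had differences of 0.07 (95% interval -0.10 to 0.23) and 0.02 (-0.11 to 0.16). The other probe set of *Epcam* gave 0.15 (limma adjusted p = 0.305), and both lay under 4.53 in both genotypes. The mucin *Muc1* had 0.00 (-0.16 to 0.16) and the tetraspanin *Tspan8* 0.14 (-0.05 to 0.33). *Muc1* averaged 4.71 in tg and 4.72 in wt livers, and *Tspan8* 4.79 and 4.65, which is little above 4.53. None of these 4 passed.

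**Figure D3:**
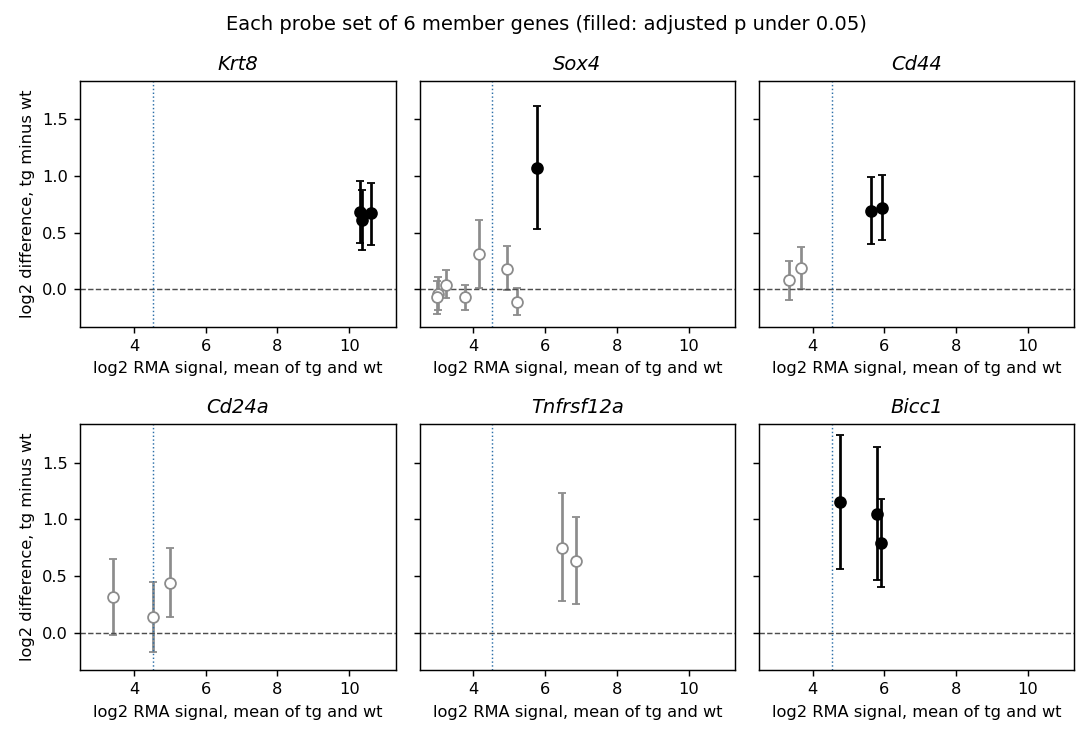
Log2 difference between *IMP2-2* tg and wt livers (vertical, 95% intervals) against mean log2 signal (horizontal) for every probe set of the 6 genes with several probe sets and an unadjusted p under 0.05. Filled points passed an adjusted p of 0.05, and the dotted line marks 4.53. All 3 probe sets of *Krt8* and of *Bicc1* passed, but 1 of 8 of *Sox4*.

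Both genes of cilium and tubule proteins were higher. *Bicc1*, an RNA-binding protein whose loss gives cystic kidneys in mice, had 5.68, 6.05 and 7.56 in tg and 5.29, 5.49 and 5.83 in wt livers. 8 of 10 tg livers lay above all wt livers, and the highest were tg_1420_4, tg_1423_2-8_4 and tg_1423_2-8_1 with 7.56, 7.08 and 6.70. The means were 6.30 ± 0.61 in tg and 5.51 ± 0.16 in wt, and the limma difference over 20 arrays was 0.79 (SE 0.186), or 1.73-fold (adjusted p = 0.0299). The other probe sets of *Bicc1* also passed, with 1.05 (adjusted p = 0.0493) and 1.15 (adjusted p = 0.0372).

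*Pkhd1* encodes fibrocystin, a ciliary protein whose defects in humans cause polycystic kidneys with congenital liver fibrosis. It had 6.27, 6.99 and 8.09 in tg and 4.65, 6.28 and 6.48 in wt livers, and 7 of 10 tg livers lay above all wt livers. The lowest wt values were 4.65 and 5.22, in wt_1423_2-8_3 and wt_1423_2-8_9. The means were 6.93 ± 0.53 in tg and 5.89 ± 0.67 in wt, and the limma difference over 20 arrays was 0.94 (SE 0.240), or 1.93-fold, in its only probe set (adjusted p = 0.0400).

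The 4 genes of duct secretion did not pass. The secretin receptor *Sctr* had a difference of -0.10 (95% interval -0.21 to 0.01), the water channel *Aqp1* one of -0.08 (-0.26 to 0.11), the anion exchanger *Slc4a2* one of 0.06 (-0.11 to 0.24) and the chloride channel *Cftr* one of 0.03 (-0.08 to 0.15). The 4 claudins, which seal tight junctions, did not pass either. *Cldn3* had 0.07 (-0.08 to 0.21), *Cldn4* -0.07 (-0.21 to 0.08), *Cldn6* -0.10 (-0.21 to 0.00) and *Cldn7* 0.15 (-0.11 to 0.40). *Cldn3* was the one claudin above 4.53.

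For the 6 higher genes, an exact permutation test (two-sided, not adjusted) that ran through the 43758 possible groupings of the 10 tg and 8 wt values gave p values of 0.000389 for *Krt8* to 0.00144 for *Sox4*. It was run only for genes that limma had called, and its groupings cross the numbers in the sample names, so these values are a description and no further support.

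With near-identical wt arrays averaged before the fit, 2 of the 28 genes passed, *Krt8* (adjusted p = 0.0433) and *Cd44* (adjusted p = 0.0458), and 0 were lower (1 at an unadjusted p under 0.05). Among all genes 0.896% were then higher and 0.0989% lower at the adjusted threshold, and the shares at an unadjusted p were not computed. The adjusted p values of *Pkhd1* (0.0665), *Sox4* (0.0734), *Bicc1* (0.0760) and *Krt18* (0.0788) no longer passed, with differences of 0.74 to 1.13.

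Sample names carry 6 numbers that occur in both genotypes. With this number as a term, 9 of the 28 genes were higher and 0 lower, among 5.39% higher and 1.88% lower of all genes. *Tnfrsf12a* (adjusted p = 0.0275), *Krt23* (adjusted p = 0.0441) and *Cd24a* (adjusted p = 0.0453) then passed. *Krt8*, *Krt18*, *Cd44* and *Bicc1* were higher in tg livers within 6 of 6 numbers, *Sox4* within 5 and *Pkhd1* within 4. The size differed widely between numbers. Within the number of tg_1423_2-8_1 the tg minus wt difference was 1.01 for *Krt8*, 1.50 for *Krt18*, 1.99 for *Sox4*, 1.21 for *Cd44*, 1.40 for *Bicc1* and 2.20 for *Pkhd1*. Within the number of tg_1386_9 it was 0.11, 0.03, -0.21, 0.20, 0.01 and -0.01 for the same genes in that order. The arrays of that number are tg_1386_9 and wt_1386_4, the closest pair over all probe sets (SD 0.155).

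The tg livers were uneven. Tg_1420_4 was the highest tg liver for 12 of the 28 genes, among them 5 of the 6 higher genes, and *Cd44* was highest in tg_1423_2-8_1. All 6 genes lay above every wt liver in tg_1371_2, tg_1420_14, tg_1420_4, tg_1423_2-8_1 and tg_1423_2-8_4. 1 of the 6 did so in tg_14231_6, and 0 of the 6 in tg_1386_9. Tg_1386_9 differed from wt_1386_4 by an SD of only 0.155, and whether these arrays came from separate mice is not known. Without tg_1420_4, tg_1423_2-8_1 and tg_1423_2-8_4, *Krt8* was 0.48 (adjusted p = 0.0181) and *Bicc1* 0.44 (adjusted p = 0.0228), and 2 of the 28 genes passed, beside 0.588% of all genes higher. Without the 4 arrays that share the number of tg_1423_2-8_1, 0 of the 28 passed in limma, beside 0.253% of all genes higher. In that fit 10 of the 28 were higher at an unadjusted p under 0.05, for which the share of all genes was not computed. *Krt8* then was 0.58 (adjusted p = 0.134) and *Cd44* 0.60 (adjusted p = 0.109).

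**Figure D4:**
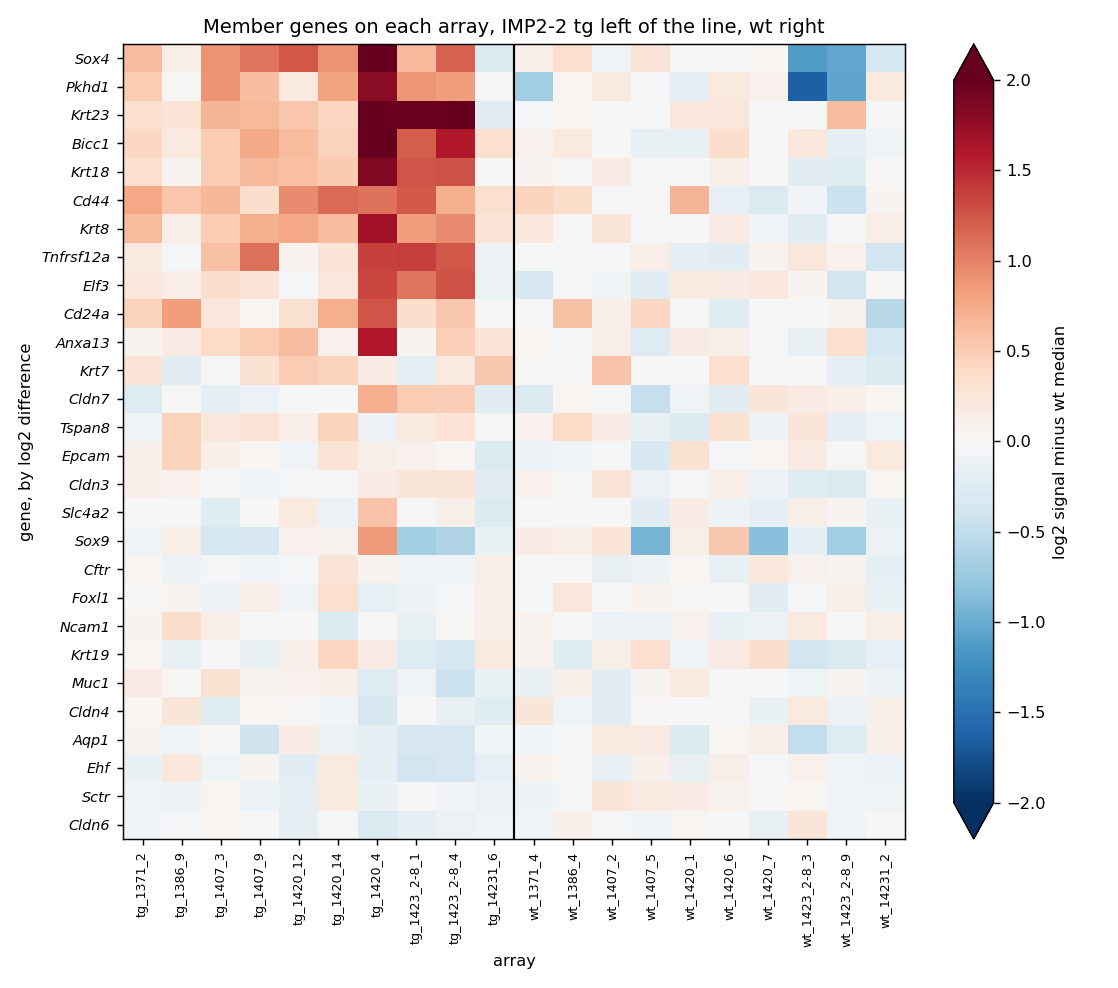
Log2 signal minus the wt median of each gene (colour, limited to 2 either way) for 28 genes (rows, by log2 difference) on 20 arrays, with *IMP2-2* tg left and wt right of the line. Tg_1420_4, tg_1423_2-8_1 and tg_1423_2-8_4 are the reddest columns, and tg_1386_9 and tg_14231_6 resemble wt arrays in the upper rows.

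Other genes of duct and progenitor biology were read from 7 further lists of general knowledge. 1 of 15 genes for cilia and cyst disease was higher and 0 lower (2 higher and 3 lower at an unadjusted p under 0.05). It was *Kif3a*, a motor subunit that carries cargo into cilia, with a difference of 0.23 (SE 0.051, adjusted p = 0.0246, or 0.0570 with near-identical wt arrays averaged). In limma 0 genes passed among 20 of biliary fate and Notch signalling, 14 of secretion, 15 of other junctions, 10 other keratins, 16 of epithelial identity and 15 niche ligands and receptors. At an unadjusted p under 0.05 these lists had 3, 2, 5, 0, 2 and 3 genes higher and 3, 3, 2, 2, 3 and 2 genes lower, in that order. Their median differences were 0.07, -0.05, 0.19, -0.02, -0.08 and -0.03. With the label number as a term, 4 further genes of these lists passed, and they are named after their values were seen. 3 were higher, *Tff3*, a mucosal trefoil peptide (1.54, adjusted p = 0.0505 without and 0.0312 with the term), *Marveld2*, a tight junction protein (0.74, 0.0543 and 0.0452), and *Slc5a1*, a sodium and glucose cotransporter (0.48, 0.0600 and 0.0379). *Slc12a2*, a cotransporter of sodium, potassium and chloride, was lower (-0.26, 0.0712 and 0.0460).

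Markers of other cell types were read beside the higher genes, since leukocytes also carry *Cd44*. Of 12 macrophage markers 7 were higher in tg livers, and their mean level per array ran from 7.65 to 8.27 in tg and from 7.34 to 7.87 in wt livers. Of 10 endothelial markers 1 was higher (6.18 to 6.61 in tg, 5.90 to 6.57 in wt). 0 passed of 9 hepatocyte, 6 mesothelial, 10 stellate, 8 T and NK cell, 5 B cell, 5 neutrophil, 7 pancreatic acinar and 5 erythroid markers, with 0, 0, 3, 0, 0, 0, 0 and 0 higher and 0, 0, 0, 1, 2, 0, 1 and 0 lower at an unadjusted p under 0.05 in that order. At that p, 13.0% of all genes were higher and 2228 of all 18194 were lower. With the label number as a term in limma, the macrophage markers *Csf1r* (adjusted p = 0.0343) and *Timd4* (0.0349) also passed as higher. The T cell marker *Cd8a* (0.0452) and the B cell marker *Ms4a1* (0.0286) then passed as lower. With near-identical wt arrays averaged, the macrophage markers *Marco* (0.0744) and *Vsig4* (0.0685) no longer passed. The mesothelial markers, which could bring keratins from the liver surface, averaged 3.74 to 4.71 in tg and 3.80 to 4.62 in wt. The 3 tg livers with the strongest signals, tg_1420_4, tg_1423_2-8_1 and tg_1423_2-8_4, lay apart from the other 7 tg livers in the mean of 3 of these lists. Neutrophil markers were at 5.66 to 6.49 in these 3 and 4.77 to 5.62 in the other 7, pancreatic acinar markers at 5.01 to 5.18 and 5.35 to 5.61, and erythroid markers at 5.17 to 5.35 and 5.44 to 5.77. Single genes can weigh on these means. The genotype difference had the largest SE of each list in *S100a8* (0.482), *Cela1* (0.301) and *Alas2* (0.247). Whether the gaps run through the other genes of these cell types was not tested. The part of these cell types and of macrophages in the results was not tested. The 3′ minus 5′ signal of *Gapdh*, a sign of RNA quality, was -0.17 to 0.22 in tg and -0.18 to 0.28 in wt livers. That of beta-actin was 1.08 to 1.51 in tg (median 1.28) and 0.95 to 1.64 in wt livers (median 1.18). The same 3 tg livers had 1.39, 1.51 and 1.46 for it, and the part of RNA quality in the results was not tested.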

How the data were processed

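RNA described as from the livers of 10 tg and 10 wt mice was hybridized to Affymetrix Mouse Genome arrays. Normalization by RMA was done by the authors, and their deposited log2 values entered the analysis unchanged (array medians 4.46 to 4.55). The sources used here do not give the RMA version. Genes were named from the array annotation, in which 34958 probe sets have 1 symbol, 932 several and 9211 none or no entry. A gene with several probe sets was read from the one of highest mean signal over all 20 arrays, tg and wt together. R 4.3.3 with limma 3.58.1 fitted genotype as the only term to 20 arrays and 45101 probe sets, with Benjamini-Hochberg adjustment and 0.05 as the threshold. The fit was tested on simulated data. Their arrays were drawn independently, without near-identical arrays or deviations shared by a label number, so the test does not cover these. Python 3.11.15 with scipy 1.17.1 was used for exact tests. P values weigh the genotype difference against the spread between arrays, whose number limits the precision. The main fit treats all 20 arrays as independent, although some wt arrays were near-identical and same-numbered arrays deviated together.

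Genes and lists were chosen with earlier results of these data known. Genes past the threshold in the fit with genotype, with the label number, or with wt pairs averaged were described in full, and of the further lists those past it with genotype alone. Same-numbered tg and wt arrays deviated together after the genotype means were removed (correlation 0.184 to 0.404, over 0.1 for all 6 numbers and highest for the own number in 5), so the numbers count as pairing the arrays. The calls given first do not use this pairing, and the fit with the number as a term is an alternative, given beside each result whose call it changes. What the number stands for is not given. Alternatives were other normalizations, filters, fits, probe sets and arrays left out.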

Additional observations from a re-analysis of the deposited data

Results flagged for a closer look

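Of 56 sets of values, 28 genes in 2 genotypes, 6 had 1 value far from the others, where chance gives about 1 in 20. 4 of the 6 were in the same liver. Tg_1420_4 stood above the next tg liver with 11.93 against 11.20 for *Krt8*, 8.09 against 7.18 for *Pkhd1*, 5.85 against 5.12 for *Sox9* and 5.06 against 4.07 for *Anxa13*. Among wt livers, wt_1423_2-8_9 reached 5.29 for *Krt23*, with 4.90 as the next value. The profile of wt_1407_2, averaged with its near-identical array, reached 4.28 for *Krt7*, with 3.85 as the next value. The cause was not tested.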

How the results depend on the processing

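The count of 6 higher genes came to 5 to 7 with arrays centred on their medians, renewed quantile normalization, or probe sets above the median mean only. The same held with trend and robust settings, array weights, *Xist* signal as a covariate, the label number as a random block, or a Wilcoxon test. It also held without wt_1386_4 and tg_1386_9, and with cross-hybridizing probe sets left out where a gene had another. All 3 *Krt8* probe sets have name endings that this filter drops, so *Krt8* kept its probe set. The share of all genes was not computed for these alternatives. The count was 2 with near-identical wt arrays averaged, 2 without tg_1420_4, tg_1423_2-8_1 and tg_1423_2-8_4, and 0 without the 4 arrays that share the number of tg_1423_2-8_1. It was 3 of 13 genes with the probe set of the second highest mean, where *Sox4* gave -0.11. The replicate block with the label number as a term gave 9 and lost none of the 6. The count of lower genes was 0 in each alternative.

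Without 1 array the count ran from 2 (without tg_1423_2-8_1 or tg_1423_2-8_4) to 8 (without tg_14231_6), and it was 3 without wt_1407_5, wt_1423_2-8_3 or wt_1423_2-8_9. The share of all genes was not computed for these fits. *Krt8* and *Cd44* passed in all 20 such fits. *Bicc1* lost its call without tg_1423_2-8_1, tg_1423_2-8_4 or wt_1407_5 (adjusted p up to 0.0588). *Krt18* lost it without these 3 or without wt_1420_7, wt_14231_2, wt_1423_2-8_3 or wt_1423_2-8_9 (up to 0.0660). *Sox4* lost it without tg_1407_3, tg_1420_12, tg_1423_2-8_1, tg_1423_2-8_4, wt_1407_2, wt_1420_6, wt_14231_2, wt_1423_2-8_3 or wt_1423_2-8_9 (up to 0.0651). *Pkhd1* lost it without tg_1407_3, tg_1420_14, tg_1420_4, tg_1423_2-8_1, tg_1423_2-8_4, wt_1371_4, wt_1407_5, wt_1420_1, wt_1420_7, wt_1423_2-8_3 or wt_1423_2-8_9 (up to 0.0744), and also with array weights, trend and robust settings or a Wilcoxon test. *Krt23* passed without tg_14231_6 (0.0378) and *Tnfrsf12a* without tg_1386_9 or tg_14231_6 (as low as 0.0282), and *Tnfrsf12a* also among probe sets above the median mean and with the random block. The cause was not tested. Weak signals limit what can be read for the 9 genes under 4.53 and for those little above it.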
